A study of Drosophila melanogaster with 3 samples.

Results

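Binding of GFP-tagged Prospero was examined at 4 cell cycle genes, CycE, stg, E2f1 and dap, in Drosophila melanogaster embryos. A summit, the position the authors' peak caller marked inside a peak, was given to a gene when it lay in the gene body, within 1 kb upstream, or in intergenic sequence for which that gene had the nearest transcript start. By this rule the 4 genes held 34 of the 6215 summits of the optimal set, the peaks the authors kept by how well ranks recurred between replicates (irreproducible discovery rate, IDR). CycE held 8, stg 3, E2f1 18 and dap 5. The full peak lists of replicates 1, 2 and 3 held 73, 69 and 79 summits of these genes among 30000 each. The single group was whole embryos of mixed sex collected at 2 to 18 h, from a transgenic line that stably expresses Prospero carrying GFP at its C terminus, in 3 biological replicates. An anti-GFP antibody was used per the sample descriptions, although the antibody label reads pros, and chromatin was sonicated to 200 to 800 bp. No other genotype, age or antibody was part of the series, and the control library named in the labels was not analysed here, so the values below describe binding and compare no conditions. The files hold no RNA, so neither the makeup of the embryos nor expression of the 4 genes was measured. In whole embryos, binding in few cells and weak binding in many cells cannot be told apart. The optimal set was the same 6215 peaks as the strongest of the list called on pooled reads, so its recurrence in the replicates is not independent. In dm6 coordinates CycE (FBgn0010382) spans 15727581 to 15748150 on the minus strand of 2L. The stg gene (FBgn0003525) spans 29251826 to 29255800 on the minus strand of 3R, and E2f1 (FBgn0011766) spans 21620304 to 21660871 on the same strand of 3R. The dap gene (FBgn0010316) spans 9712321 to 9716256 on the plus strand of 2R.

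The 4 genes act at the 2 gates of the cell cycle that a neural precursor must close when it stops dividing. CycE encodes Cyclin E, which with Cdk2 drives entry into S phase, and E2f1 encodes a transcription factor that switches on S phase genes. String, the product of stg, is the Cdc25-type phosphatase that activates Cdk1 and so triggers mitosis. Dacapo, the product of dap, belongs to the p21 and p27 family of inhibitors and blocks Cyclin E with Cdk2. Prospero is a homeodomain protein that dividing neural stem cells (neuroblasts) hand to the ganglion mother cell, where it enters the nucleus and promotes the last division and exit from the cycle. Earlier fly work lists repression of cycle genes among its effects. Transcription of stg is known to be driven by regulatory sequence spread over a long stretch upstream of the gene.

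Sequences under a selection of the summits are printed 5′ to 3′ on the strand of the gene, from the RefSeq copy of dm6. The selection leaves out dap and the strongest stg summit. Capitals mark the Prospero homeodomain core, AAGACG on either strand (CGTCTT when read on the other strand). The CycE stretch, chr2L:15731870-15732164 (minus strand), runs through the strongest summit of the 4 genes, 146 bp upstream of the CycE-RB start, to the nearest core.
CycE: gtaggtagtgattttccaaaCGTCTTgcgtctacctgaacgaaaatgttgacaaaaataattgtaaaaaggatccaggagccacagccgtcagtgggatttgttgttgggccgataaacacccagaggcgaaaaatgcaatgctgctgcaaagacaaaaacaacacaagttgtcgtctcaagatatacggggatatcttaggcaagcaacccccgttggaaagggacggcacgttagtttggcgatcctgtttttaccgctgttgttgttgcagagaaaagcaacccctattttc
The E2f1 windows of 121 bp at chr3R:21640537-21640657 and chr3R:21642426-21642546 (minus strand) are centred on its strongest summits and hold no core.
E2f1 intron a: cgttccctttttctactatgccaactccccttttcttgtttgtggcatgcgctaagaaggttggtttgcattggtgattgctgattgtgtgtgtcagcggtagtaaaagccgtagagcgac
E2f1 intron b: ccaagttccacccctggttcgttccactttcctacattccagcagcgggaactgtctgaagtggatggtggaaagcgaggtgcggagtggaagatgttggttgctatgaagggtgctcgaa
The E2f1 stretch at chr3R:21658480-21658724 (minus strand) covers a weaker pair of summits in the first intron and holds 2 cores, 142 bp apart.
E2f1 intron c: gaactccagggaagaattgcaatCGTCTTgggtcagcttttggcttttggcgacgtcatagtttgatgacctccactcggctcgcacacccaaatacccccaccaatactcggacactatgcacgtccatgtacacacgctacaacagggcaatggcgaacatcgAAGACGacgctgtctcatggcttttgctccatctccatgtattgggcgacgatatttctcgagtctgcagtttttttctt
For stg, the window at chr3R:29254039-29254159 (minus strand) is its intronic summit, and that at chr3R:29287491-29287611 (minus strand) is the strongest summit in the interval upstream, which the rule gave to another gene.
stg intron: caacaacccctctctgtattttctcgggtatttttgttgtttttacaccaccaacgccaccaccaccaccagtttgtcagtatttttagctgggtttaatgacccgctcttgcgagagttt
stg upstream: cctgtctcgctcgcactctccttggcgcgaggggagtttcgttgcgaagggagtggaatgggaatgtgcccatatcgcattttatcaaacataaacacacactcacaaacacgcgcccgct

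All 4 genes were bound, with a density of summits that differed between them. A summit in the body or the 1 kb upstream was present at 17.9% of 13945 protein-coding genes, and adding intergenic sequence to the nearest start made this 19.5%. A summit found in all 3 replicates within 150 bp, with each list limited to its 6215 strongest peaks, was present at 12.7% of coding genes, and each of the 4 genes had at least 1. At least 3 summits were present at 4.04% of coding genes and at all 4 members, although longer genes hold more. Intergenic sequence beyond 1 kb added no summit to any member, since neighbouring transcripts start nearer to every such summit.

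Counts were therefore set beside those of coding genes whose region, the body plus 1 kb, was within 25% of the member's length. The dap region of 4.94 kb held 5 summits, 1.01 per kb, while the 2395 other genes of that length had a median of 0 and 2 of them (0.0835%) held as many. The stg region of 4.97 kb held 3 summits, 0.603 per kb, a count that 22 of 2369 others (0.929%) reached. The E2f1 region of 41.6 kb held 18, 0.433 per kb, beside a median of 1 among 354 others, of which 3 (0.847%) held as many. The CycE region of 21.6 kb held 8, 0.371 per kb, beside a median of 1 among 564 others, of which 15 (2.66%) held as many. The genome as a whole had 0.0464 summits per kb. By these counts each member lay in the upper few percent of genes of its own length. The higher density of dap than of stg depended on the count. In the stronger 50% of the optimal set, or with summits matched in replicates 1 and 3 alone, dap and stg each held 3, and as merged peak regions each held 2. Matched in every replicate, dap held 3 and stg 2. As merged regions E2f1 held 11, and in the stronger 50% CycE held 5. Merged regions were not counted for the other genes of similar length, so the shares above hold for summit counts only. They describe where the members fall and are not tests.

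**Figure D1:**
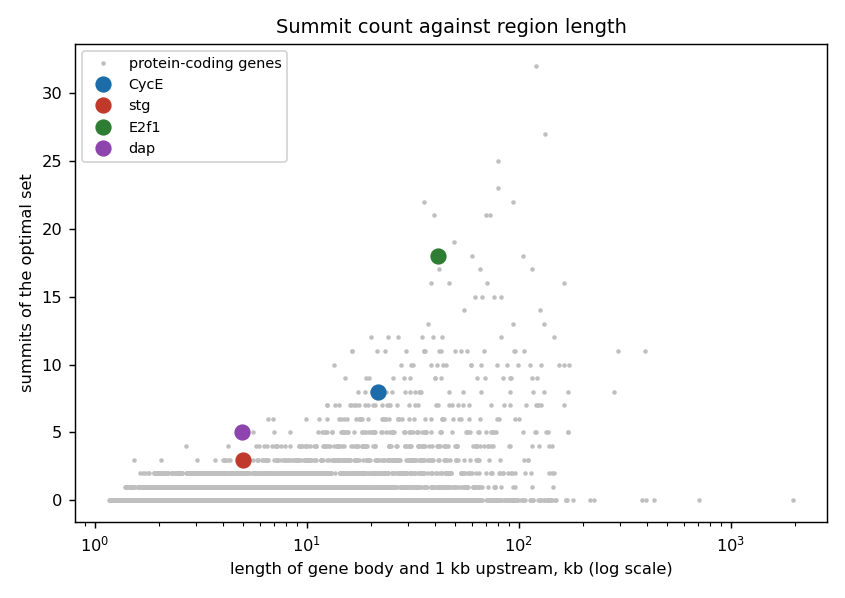
Number of optimal-set summits (y axis) against the length of gene body and 1 kb upstream in kb (x axis, log scale), with a grey point for each protein-coding gene and coloured points for the 4 genes. E2f1 with 18 summits and CycE with 8 sit high among long genes, and dap with 5 and stg with 3 sit above most genes of about 5 kb.

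The counts were close to each other in the replicates. With each replicate list limited to its 6215 strongest peaks, E2f1 held 18, 19 and 17 summits in replicates 1, 2 and 3 (18 ± 1, SD, n = 3) and CycE held 9, 8 and 8 (8.33 ± 0.577, SD, n = 3). The same lists held 4, 4 and 3 summits of dap (3.67 ± 0.577, SD, n = 3) and 3, 2 and 3 of stg (2.67 ± 0.577, SD, n = 3). E2f1 and CycE overlapped with no other member in these counts, while dap and stg shared the value 3. Of the 34 member summits, 25 were matched within 150 bp among the 6215 strongest of all 3 replicates, 73.5% (exact binomial 95% interval 55.6% to 87.1%), beside 63.5% of the optimal set, a value inside that interval. Against the whole replicate lists 32 of 34 were matched in all 3, 94.1%, beside 94.4%. The exceptions were a CycE summit at 15733883 and an E2f1 summit at 21640807, both without a match in replicate 1. In 2 cases a single replicate summit matched a pair of neighbouring member summits.

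The strongest summit was ordered CycE, E2f1, then dap and stg. Ranks count from 1 for the peak with the highest signal of a list, on the authors' scale. For CycE the strongest summit ranked 73, 74 and 83 in replicates 1, 2 and 3 (76.7 ± 5.51, SD, n = 3), and for E2f1 it ranked 175, 213 and 173 (187 ± 22.5, SD, n = 3). These ranges did not overlap each other or those of the other members. For dap the ranks were 660, 952 and 697 (770 ± 159, SD, n = 3), and for stg they were 969, 1397 and 743 (1036 ± 332, SD, n = 3). The dap summit was the stronger in each of the 3 lists, but the ranges of dap and stg overlapped. In the optimal set 53 coding genes had a stronger summit than CycE, 138 than E2f1, 480 than dap and 587 than stg. A longer region offers more summits from which the strongest is taken, and the ranks were not adjusted for length. The place of stg also depends on the assignment rule. With the interval upstream of it counted, described below and chosen after seeing the data, its mean rank would be 206. With 3 replicates in a single group no test between members was made.

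**Figure D2:**
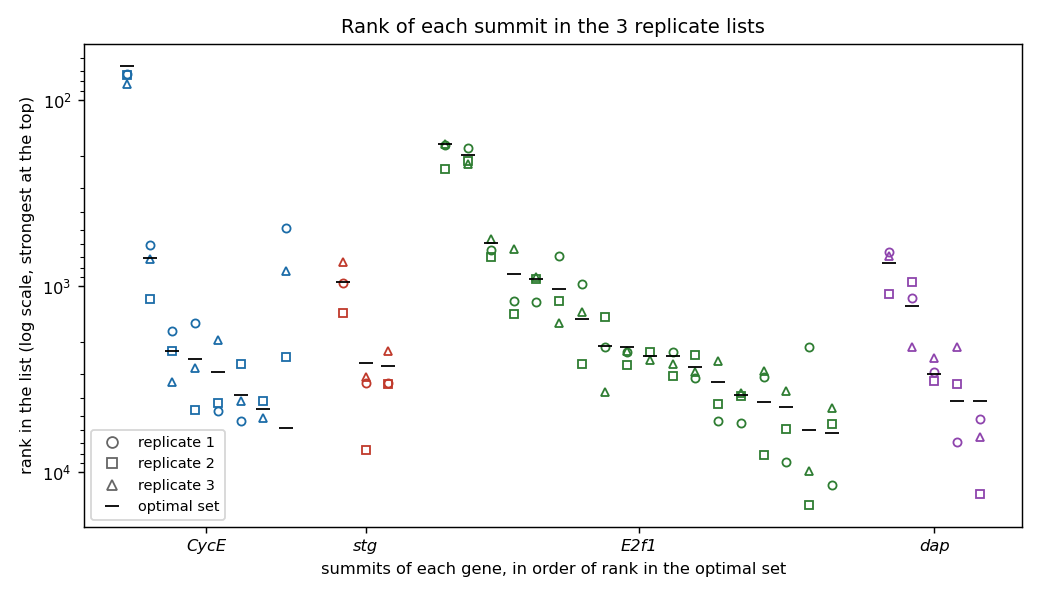
Rank (y axis, log scale, strongest at the top) of each of the 34 member summits in the lists of replicates 1, 2 and 3 (open circles, squares and triangles) and in the optimal set (black dashes), by gene along the x axis in order of optimal-set rank. The strongest CycE summit lies between ranks 66 and 83 in all 4 lists, apart from every other member summit.

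Most member summits were intronic, but this held for CycE and E2f1 and not for stg and dap. Of the 34, 28 lay in introns of the member, 4 in its 5′ UTR and 2 upstream of it, and none in coding sequence or the 3′ UTR. By gene the intronic summits were 8 of 8 in CycE and 17 of 18 in E2f1, but 1 of 3 in stg and 2 of 5 in dap. The pooled shares below therefore mainly describe CycE and E2f1. When every summit was classed against all genes and summits within 500 bp of any start were set apart as promoter summits, 25 of 34 were intronic, 73.5% (exact 95% interval 55.6% to 87.1%), beside 41.8% of the optimal set. Promoter summits made up 17.6% of the members' (interval 6.76% to 34.5%), beside 34% of the optimal set. Of the 34, 23 were in the stronger 50% of the optimal set, 67.6% (interval 49.5% to 82.6%). Neighbouring summits of a gene share fragments and are not independent, so the intervals cover counting error only. A summit within 500 bp of one of a gene's own starts was present at 11.8% of coding genes and at each of the 4 members, but which start it lay at differed.

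CycE, the S phase cyclin, was bound most strongly at its internal start. The top summit at 15731930 (intron of the longer transcripts) lay 146 bp upstream of the RB start and ranked 66 in the optimal set with a signal of 2580, 44.2% of the summed signal of the 8 CycE summits. In replicate 2 the matching summit lay at 15732044, 114 bp away. Within 500 bp of the start shared by RC, RD and RF no replicate list held a summit, and at the outermost start, that of RA and RE, the best peaks ranked 20826, 16047 and 27547 in replicates 1, 2 and 3. Both distal starts thus lacked a peak of the optimal set, with the nearest at 0.618 and 0.922 kb. The next CycE summit, at 15736009, lay in an intron 4.22 kb upstream of RB and ranked 710, with 607, 1181 and 722 in the replicates. An intronic pair at 15742167 and 15743163 ranked 2244 and 2472. The summits at 15747228 (rank 2902) and 15745695 (rank 3877) also fell in the regions of the non-coding genes asRNA:CR44866 and lncRNA:CR44974, and the list does not say which gene they belong to. The remaining summits were at 15733883 (rank 4616) and 15732224 (rank 5826). The latter shares a peak region with the top summit and ranked 493, 2427 and 831 in the replicates, far above its place in the optimal set.

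E2f1, the S phase transcription factor, had its strongest binding deep in its introns. The summits at 21640597 and 21642486, 2.1 and 3.99 kb upstream of the RC start, ranked 174 and 199 in the optimal set. The first ranked 175, 235 and 173 in replicates 1, 2 and 3, and the second ranked 182, 213 and 223, so the order of the pair differed between replicates. Both lay in a single peak region of 5167 bp, which held 6 summits, also those at 21644425 (rank 872), 21640807 (rank 2378), 21643471 (rank 4231) and 21644630 (rank 4491). The summit at 21638655, 161 bp upstream of the RC start, ranked 592 and held ranks of 644, 706 and 559 in the replicates. It lay 3 bp from the start of lncRNA:CR46056, which is annotated on the opposite strand, and the peak cannot be divided between the starts. No other E2f1 start had an optimal-set summit within 500 bp. The nearest lay 0.63 kb from the start of RA and RE, 1.01 kb from that of RD, 1.73 kb from that of RB and 2.17 kb from that of RF. Peaks within 500 bp of the RA and RE start were present in the replicates at ranks 8388, 5802 and 7173.

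The other 11 E2f1 summits spread over the gene. In the first intron those at 21658500, 21658704 and 21654931 ranked 919, 6176 and 2129. A stretch of 10.3 kb without a summit followed before the wide region. Between RC and the starts of RA, RE and RD, summits at 21634775, 21633703, 21636042, 21637314 and 21636244 ranked 1039, 1519, 2125, 2743 and 6006. Downstream of all starts, the intronic summits at 21629872 and 21630711 ranked 2396 and 3866, and one at 21626773 in an exon annotated as 5′ UTR ranked 3304. No optimal-set summit lay in the regions of mir-11 or mir-998, microRNA genes annotated in the 3′ part of E2f1. None lay in those of asRNA:CR46055, lncRNA:CR46057 or Archease, whose body or upstream kb overlaps the E2f1 region.

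The stg gene, which encodes String, was bound at its start. The summit at 29255356 in the 5′ UTR lay 31 bp upstream of the RA start and ranked 954 in the optimal set, with ranks of 969, 1397 and 743 in replicates 1, 2 and 3. A neighbouring 5′ UTR summit at 29255557, 243 bp downstream of the RB start, ranked 2624 in the optimal set and 3332, 7660 and 3083 in the replicates, lowest in replicate 2. It also fell within 1 kb upstream of CG45544, the adjacent gene on the other strand. The intronic summit at 29254099, 1.23 kb into RA, ranked 2707, with 3349, 3388 and 2254 in the replicates.

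The dap gene, which encodes the Cyclin E and Cdk2 inhibitor, was bound on both sides of its start more strongly than at it. The strongest summit, at 9711593, lay 728 bp upstream and ranked 760 in the optimal set, with 660, 1116 and 697 in replicates 1, 2 and 3. The next, at 9714509 in an intron 2.19 kb downstream, ranked 1290, with 1160, 952 and 2127, and was the stronger of the pair in replicate 2 alone. The summit 22 bp downstream of the single annotated start, at 9712343, ranked 2987, with 2929, 3259 and 2438. The remaining upstream summit at 9711792 and intronic summit at 9714712 ranked 4178 and 4150. The upstream summits and the one at the start merged into 1 peak region and the intronic pair into another. Further upstream, in sequence looked at after the values were seen, summits at 9710216 (rank 3789) and 9709101 (rank 884), 2.1 and 3.22 kb from the dap start, went by the rule to lncRNA:CR44292.

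**Figure D3:**
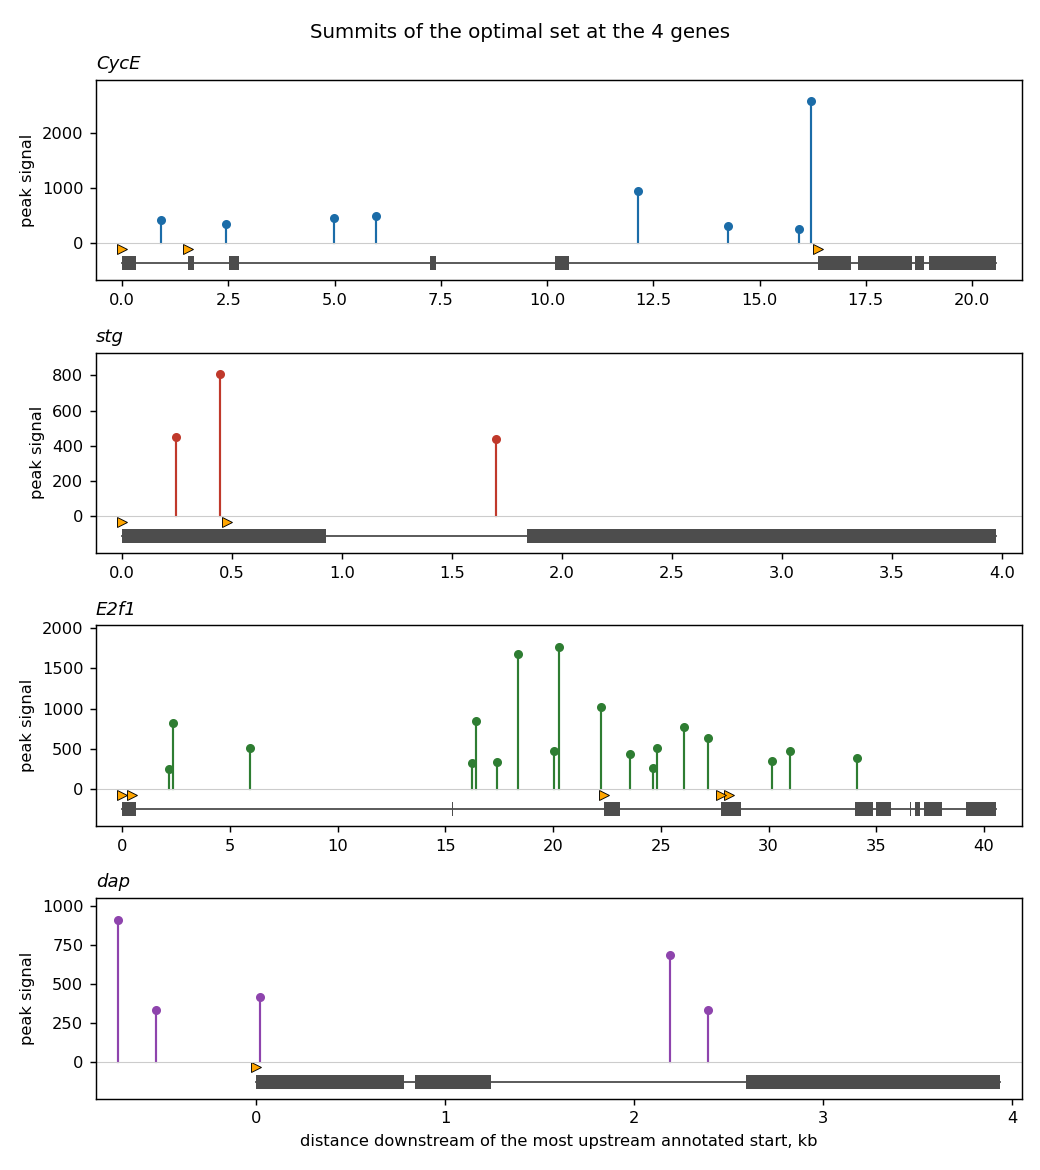
Peak signal of each optimal-set summit (y axis, authors' scale, lines with dots) against distance downstream of the most upstream annotated start in kb (x axis) for CycE, stg, E2f1 and dap, with exons of all transcripts as grey boxes and annotated starts as orange triangles. The tallest CycE line, 2580, stands at the innermost start, and the tallest E2f1 lines stand in introns between the outer starts and RC.

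The rule left out a run of summits upstream of stg. Between the end of CG45544 at 29257425 and the near end of CG14506 at 29293743 lies an interval of 36.3 kb, chosen after its values were seen, which includes lncRNA:CR45568 (29276376 to 29277108). It held 9 optimal-set summits in 5 peak regions, of which the rule gave 5 to CG45544, 3 to lncRNA:CR45568 and 1 to CG14506. Among the 6215 strongest peaks of replicates 1, 2 and 3 the interval held 9, 10 and 10 summits (9.67 ± 0.577, SD, n = 3). Its strongest, at 29287551, ranked 191 in the optimal set and 189, 250 and 180 in the replicates (206 ± 38.1, SD, n = 3), a stronger rank in each list than any summit in stg itself. That summit lies 31.8 kb upstream of the stg-RB start and 9.63 kb from the CG14506 start. The summits nearer to stg included 29258189, at 2.39 kb (rank 889), 29266913, at 11.1 kb (rank 1364), and 29268255, at 12.5 kb (rank 826). Peak positions do not say which gene a summit acts on, and with the interval counted stg would hold 12 summits.

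**Figure D4:**
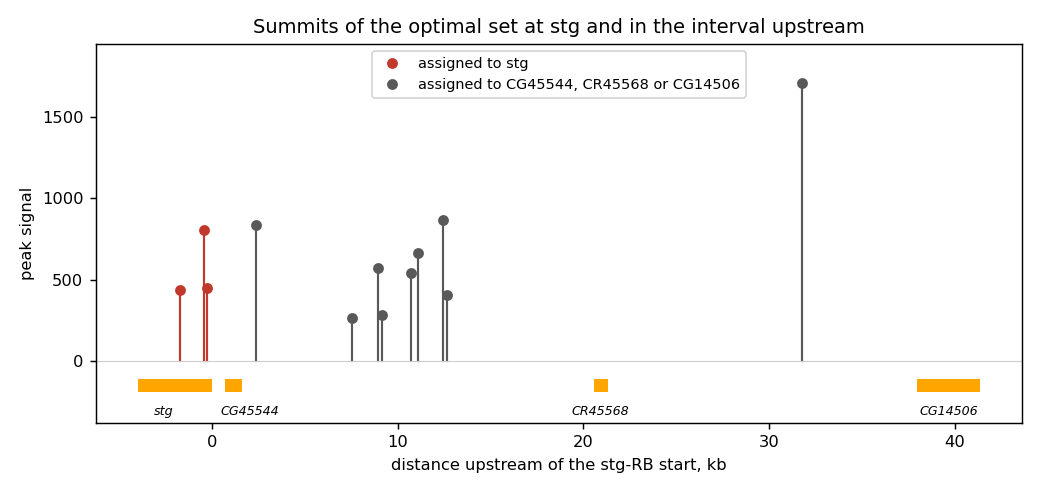
Peak signal of optimal-set summits (y axis, authors' scale) against distance upstream of the stg-RB start in kb (x axis), in red for summits given to stg and in grey for those given to CG45544, lncRNA:CR45568 or CG14506, with gene bodies as orange boxes. The highest point stands 31.8 kb upstream, and 8 others lie between 2.39 and 12.7 kb.

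The Prospero core was in few summit windows, of the members and of the optimal set alike. It was not within 100 bp of the strongest optimal-set summit of any of the 4 genes. Windows reaching 100 bp to either side of a summit were searched on both strands. The core AAGACG was in 3 of 34 member windows, 8.82% (exact 95% interval 1.86% to 23.7%), beside 11.3% of all optimal-set windows and 5.13% of windows centred 500 bp to either side of them. The members' own flanking windows held it in 4.41%. In E2f1 it lay 54 bp from the summit at 21658500 and 8 bp from that at 21658704, the cores of the third E2f1 stretch printed above. In CycE it lay 85 bp from the summit at 15732224, and this copy, the capitals in the printed CycE stretch, is 209 bp from the top CycE summit. Replicates 1 and 3 had a summit of their own 19 and 9 bp from it, at ranks 493 and 831, and in replicate 2 the nearest was the rank 74 summit at 95 bp. No window of stg or dap held the core, while that of 29266913 in the interval upstream of stg did. With the core in 11.3% of all optimal-set windows, its absence from so few windows says little about these genes.

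Other words were searched in the same windows. CAGGTAG, the site of the early embryonic activator Zelda, was in 4 of 34 windows, 11.8% (interval 3.3% to 27.5%), beside 2.53% of the optimal set. Windows centred 500 bp to either side held it in 2.94% for the members and 1.09% for the optimal set. These 4 were the CycE summit at 15732224 (rank 5826), E2f1 summits at 21644630 and 21637314 (ranks 4491 and 2743) and the dap summit at 9714712 (rank 4150). Each was weaker than the median member rank of 2434. It was 1 of 8 motifs searched, and enrichment was not tested. GAGAGAG, the repeat bound by GAGA factor, was in 6 windows, 17.6% beside 12.8%, among them the summit at the dap start and the one at the E2f1-RC start. The E-box CAGCTG, a site of basic helix-loop-helix factors, was in 5, 14.7% beside 11.6%, with a copy 17 bp and another 21 bp from the top stg summit. A match to GTGGGAA, the Su(H) site of Notch signalling, was at 1, the CycE summit at 15743163, 3 bp from its centre. E2F words (TTTCCCGC, TTTCGCGC, TTTGCCGC or TTTGGCGC) were at 1, 2.94% beside 4.46%, the E2f1 summit at 21658704. TATCGATA, bound by DREF, and AACCGGTT, bound by Grainy head, were in none (exact upper limit 10.3%), beside 0.531% and 0.805% of the optimal set. In the members' flanking windows GAGAGAG was in 7.35%, CAGCTG in 4.41%, GTGGGAA in 1.47%, E2F words in 7.35%, and TATCGATA and AACCGGTT in none. A word in a window is not evidence of binding by its factor.

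Among 30 partner genes of the 4, 11 had an optimal-set summit in the body or 1 kb upstream, 36.7% (exact 95% interval 19.9% to 56.1%), beside 17.9% of coding genes. The regions of the 30 had a median length of 3.92 kb, and no share among coding genes of similar length was computed. The list was chosen with earlier results of these data known, so the difference from 17.9% is a description and not a test. The G1/S group had 5 of 11. The ago gene, whose F-box protein marks Cyclin E for destruction, held 3 summits, and its strongest ranked 198, 440 and 329 in replicates 1, 2 and 3. The fzr gene, whose product turns on destruction of mitotic cyclins as cells leave the cycle, also held 3, with its strongest at 271, 471 and 388. Dp, the binding partner of E2f1, had 2 with a best rank of 1030 in the optimal set, Skp2, an F-box gene, 2 with 1349, and Cdk4, the kinase of Cyclin D, 1 with 4817. Cdk2, CycD, E2f2, Rbf, Rbf2 and rux had none in the body or 1 kb upstream. With intergenic sequence to the nearest start added, as in the rule for the members, 14 of the 30 had a summit, beside 19.5% of coding genes, the additions being rux with 3, E2f2 with 1 and the G2/M cyclin gene CycB with 2.

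Of 9 genes that E2F1 switches on or that act in its turnover, 2 had a summit. The dup gene, which encodes the replication licensing factor Cdt1, had 1 intronic summit that ranked 194, 220 and 188 in the replicates, a range that overlaps that of E2f1. RnrS, the small subunit of ribonucleotide reductase, had 1 at rank 4241. PCNA, RnrL, Orc1, Mcm2, Mcm5, l(2)dtl and PolA1 had none. Of 10 G2/M genes 4 had a summit. CycA, a mitotic cyclin, held 4 with ranks of 403, 582 and 758 for the strongest, and trbl, whose product promotes loss of String, held 3 with 1426, 1190 and 822, overlapping the range of stg. CycB3, another mitotic cyclin, and Myt1, an inhibitory kinase of Cdk1, had 1 each at ranks 1064 and 3794. Cdk1, CycB, twe, Wee1, Cks30A and polo had none in the body or 1 kb upstream. Summits of Cdk4, Dp, Skp2, RnrS and Myt1 also fell in the region of another gene.

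**Figure D5:**
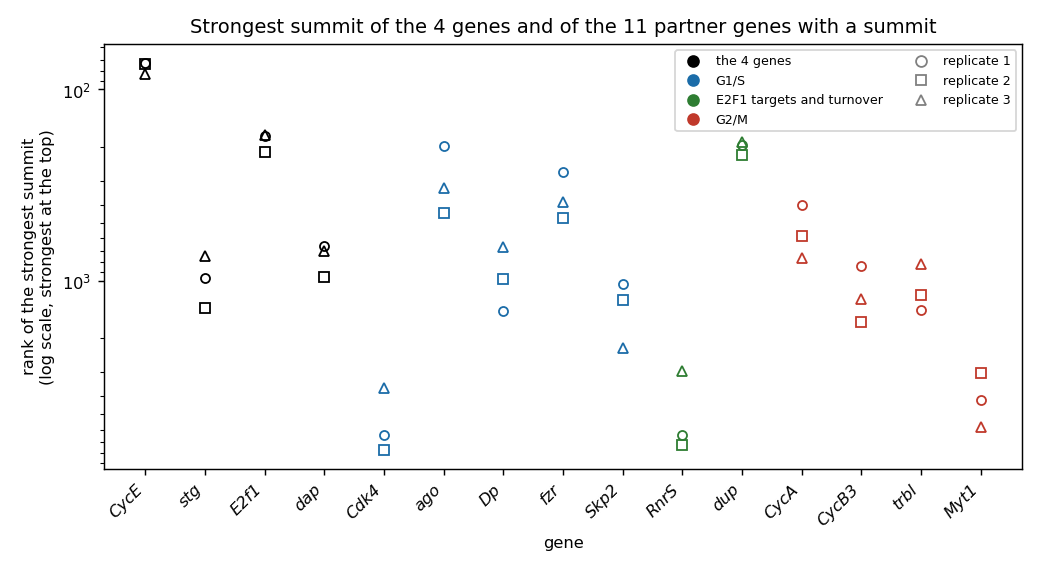
Rank of the strongest summit (y axis, log scale, strongest at the top) in replicates 1, 2 and 3 (circles, squares and triangles) for the 4 genes in black and for the 11 partner genes with an optimal-set summit, coloured by group. CycE stands above all partners in each replicate, dup lies beside E2f1, and trbl lies beside stg.

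The coding genes most like each member were found over 5 values, the log2 strongest rank in each replicate, the log2 of 1 plus the summit count and the log2 region length, as the smallest distance among 5283 genes. Nearest to E2f1 was N, at a distance of 0.368 with ranks of 168, 221 and 213 and 16 summits in 38.4 kb, followed by Raf at 0.632 and Mi-2 at 0.845. For CycE they were chn at 0.817, REPTOR at 0.939 and ogre at 1.04. For stg they were SoxN at 0.546, trbl at 0.711 and Rox8 at 0.717. For dap they were Ppa at 0.647, Bacc at 0.808 and glec at 0.845, and of these Bacc with 6 summits held more than dap.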

How the data were processed

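Peak lists in narrowPeak format on dm6 were used. Per the deposited file descriptions, each replicate list came from its own alignments and a control, and the pooled list and the IDR-thresholded optimal set were made across replicates. The deposited signal of each peak is the authors' value on an unstated scale, so it was used within a list only. It ranked peaks, gave the heights in the figures and gave the share of summed signal at CycE. That share and those heights depend on the unstated scale. For aligner, caller and IDR threshold, names and settings were not given in the sources used here. Without read counts depth is unknown, and the equal length of 30000 says nothing about it. Summits were computed as peak start plus the deposited offset.

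Genes came from Ensembl release 115 and sequence from RefSeq, with 1-based positions. Summits matched within 150 bp. The assignment, matching and motif steps were checked on simulated data with Python 3.11.15, numpy 2.4.6, scipy 1.17.1 and matplotlib 3.10.9. Intervals are Clopper-Pearson. A single group without counts allowed no test between conditions. The labels call replicates biological without saying how embryos were collected, so an SD may be technical.

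Named were the 4 genes, partners with an optimal-set summit, genes overlapping a member's region, and the 3 coding genes nearest in 5 values. Members and lists were chosen with earlier results of these data known. Alternatives were other assignments, peak regions, stronger or recurrent peaks, other matching distances, windows and replicates left out.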

Additional observations from a re-analysis of the deposited data

How the results depend on the processing

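Counts of summits depended on how a summit was counted. With overlapping peaks merged into regions E2f1 held 11 and dap 2, and in the stronger 50% of the optimal set CycE held 5 and dap 3. Matching in every replicate gave dap 3, and leaving out replicates gave it 3 to 4. Adding the interval upstream of stg, chosen after seeing the data, gave stg 12 summits and a mean strongest rank of 206.3. Ranks over regions gave means of 61.3 for CycE and 160.7 for E2f1. Over whole replicate lists the mean counts were 21 for CycE, 5.67 for stg, 41.3 for E2f1 and 5.67 for dap. The share of member summits matched in all 3 replicates was 50% within 50 bp, 97.1% within 300 bp and 94.1% in whole lists. For the optimal set as a whole the share at 50 and 300 bp was not computed, so those values have no baseline. With a replicate left out, 73.5% to 88.2% of member summits were matched in all of the remaining replicates, an easier criterion. With coding genes alone dap held 6 summits, and matching each replicate summit once, also chosen after seeing the data, gave 70.6%. In the other counts stg fell to 2 as regions, matched in every replicate, and without replicate 1 or 3, and E2f1 to 12 in the stronger 50%, 13 matched in every replicate and 13 to 16 with a replicate left out. The share of windows with AAGACG ran from 2.94% in the narrower window or shifted left to 11.8% in the wider, inside its counting interval. The cause of these differences was not tested. No paired analysis was possible because there is a single group. Depth is unknown, so a gene without a summit cannot be called unbound.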

Other observations

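Below the optimal set, the pooled list held further summits in the member regions. CycE had 15, of which 8 were matched within 150 bp in all 3 replicate lists, and E2f1 had 26, of which 10 were. Of 3 in stg, 2 were matched in all 3 lists, one of them in the 3′ UTR at 29251845, at pooled rank 9806 and ranks 20594, 13994 and 7086 in replicates 1, 2 and 3. E2f1 had weak summits near its inner starts, at 21632976, 97 bp into RA and RE (pooled rank 7040), and at 21632638, 55 bp into RD (rank 9320), both matched in all 3 lists. It also had them near its outer starts, at 21660848, 23 bp into RF (rank 17521), matched in all 3 lists, and at 21660356 and 21660139, 76 and 293 bp into RB (ranks 13374 and 10653), each matched in 2. The summit at 21632976 also lies in asRNA:CR46055, annotated on the opposite strand, and that at 21632638 within 1 kb upstream of that gene. Further weak summits lay in mir-998, at 21622007 (rank 21337), and in Archease, at 21661704 (rank 21426), each matched in 2 lists. The dap region had 1 more, at pooled rank 25928, which was not matched in all 3 lists. Of the 6 dap summits in the pooled list, 5 were in the optimal set. The share matched in all 3 lists was not computed over all pooled summits below the optimal set. These counts therefore have no baseline and describe the members alone.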
